A study of Mus musculus with 12 samples.

Results

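Creb5 and Runx1, 2 of the 32285 genes counted in this single-nucleus RNA sequencing study of mouse hepatocytes, encode transcription factors and were chosen by their UMI counts, which were high in plated hepatocytes and low in liver. Their levels in plated cells against uncultured cells, and across the clusters of plated cells, are therefore given as a description with no test. The study took 3 sample types from the liver of each of 8 mice, which made 24 samples. Liver was a piece of the median lobe, cut off and frozen after the blood had been flushed out with buffer. Cell Suspension held the cells freshly released by collagenase and not plated. Primary Hepatocytes were cells of the same suspension after 24 hours in culture, per the methods on collagen in medium with serum and, once attached, with dexamethasone and insulin, and lifted with trypsin. Cell Suspension was washed in the medium with serum but had no medium with these hormones, so culture and the hormones cannot be told apart. All mice were wild type, and the 3 sample types of a mouse shared its strain, sex and age. The labels give the strain as C57BL6J, and the methods of the study give male C57BL/6NTac. Nuclei of 4 samples at a time were tagged with antibody hashtags and mixed into 6 pools, and 53467 nuclei were assigned to a sample, of which 20024 were Liver, 15049 Cell Suspension and 18394 Primary Hepatocytes.

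CREB5 is a basic leucine zipper protein of the group that also holds ATF2 and ATF7. Proteins of this group bind the cAMP response element (CRE) and form dimers with JUN proteins, which with FOS proteins also make up the AP-1 complex. RUNX1 binds DNA through its runt domain as a dimer with CBFB, which has no DNA-binding domain of its own, and is best known as a regulator of blood cell formation that stays in use in macrophages and lymphocytes.

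Creb5 (ENSMUSG00000053007) lies on the plus strand at chr6:53287270-53700376 of GRCm38, spans 413 kb and has 15 annotated transcripts. Runx1 (ENSMUSG00000022952) lies on the minus strand at chr16:92601466-92826149, spans 225 kb and has 7. RefSeq gives 2 transcription starts for each gene. The sequences below, from RefSeq on GRCm38.p6, are shown because both starts of Creb5 carry a match to an element that CREB and AP-1 proteins are known to bind, and the upstream start of Runx1 carries matches to the element of the RUNX proteins themselves. The first sequence holds the 250 bases before the upstream start of Creb5 (chr6:53287053-53287302, plus strand), with the CRE letters TGACGTCA in capitals.
Creb5 upstream start: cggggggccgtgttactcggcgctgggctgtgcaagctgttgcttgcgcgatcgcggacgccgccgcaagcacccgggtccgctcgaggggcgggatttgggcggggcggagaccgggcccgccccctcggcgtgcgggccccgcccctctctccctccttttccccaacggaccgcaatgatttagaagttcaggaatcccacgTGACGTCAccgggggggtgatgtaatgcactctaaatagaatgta
The second holds the 250 bases before the downstream start of Creb5 (chr6:53573124-53573373, plus strand), with the AP-1 letters TGACTCA in capitals.
Creb5 downstream start: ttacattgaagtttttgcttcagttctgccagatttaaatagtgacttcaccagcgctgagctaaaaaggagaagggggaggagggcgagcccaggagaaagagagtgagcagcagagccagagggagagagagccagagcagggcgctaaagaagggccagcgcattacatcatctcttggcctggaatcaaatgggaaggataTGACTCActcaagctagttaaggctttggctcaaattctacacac
The last holds bases 21 to 50 after the upstream start of Runx1 (chr16:92826025-92826054, minus strand), with 2 copies of AACCACA, the reverse complement of the RUNX letters TGTGGTT, in capitals.
Runx1 upstream start: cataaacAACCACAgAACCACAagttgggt
Windows of 300 bases, 250 before and 50 after a start, were searched on both strands for the CRE, for TGACTCA or TGAGTCA, and for TGTGGTT or AACCACA. Over 32851 such windows, 1.79% held the CRE, 5.20% the AP-1 letters and 5.27% the RUNX letters. In the 2 windows of Creb5 these were the only matches, both starting 45 bases before the start site. The window of the downstream start of Runx1 (chr16:92697280-92697579) held none of the 3 elements.

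Levels are unique molecular identifiers (UMIs, counted as spliced, unspliced or ambiguous and added) of the gene as counts per 1e6 UMIs of all genes (CPM), summed over the nuclei of a cell type in each sample. Hepatocyte nuclei of Liver (14998) and Cell Suspension (12589) were those the authors named hepatocytes. In Primary Hepatocytes most nuclei carry a single annotation as cultured cells. Clusters 0, 1, 14 and 17 of that annotation, 14760 nuclei, are called cultured hepatocyte nuclei here. All 8 hepatocyte markers examined were detected in each of these 4 clusters, at a summed 2180 to 6339 CPM per sample against 10083 to 15205 CPM in Liver hepatocyte nuclei. Hnf4a, the transcription factor that maintains hepatocyte identity, was at 207 CPM in them, against 420 CPM in Liver hepatocyte nuclei and 60.2 CPM in cluster 12 of the cultured cells. The hepatocyte list as a whole did not separate them from cluster 12, where it summed to 3113 CPM against 3039 to 5459 CPM in the 4 clusters, with Alb near-equal (1334 against 1384 CPM) and Ttr (211 against 133), Apoa1 (260 against 176) and Serpinc1 (72.4 against 54.8 CPM) higher in cluster 12. Cluster 12, in which the 10 endothelial markers summed to 6782 CPM against 133 CPM in cultured hepatocyte nuclei (316 CPM in cluster 14), is called endothelial-like. Cluster 27, in which the 8 stellate markers summed to 2529 against 233 CPM, with no UMI of Ngfr, is called stellate-like. Detection alone did not separate them, since all of these markers were also found in cultured hepatocyte nuclei. Hepatocyte nuclei of a sample held 6860168 to 29018248 UMIs (Liver), 2065229 to 17376728 UMIs (Cell Suspension) or 9539460 to 20243064 UMIs (Primary Hepatocytes). Of 53128 cell barcodes, 337 occurred in more than 1 pool. In Cell Suspension 45 nuclei and in Liver 2 nuclei lay in clusters 0, 1, 14 and 17, against their label, and were kept out of the levels below. Cluster 8 of the cultured cells held 705 Cell Suspension and 166 Liver nuclei, also kept out of the hepatocyte levels. Conversely, 73 Primary Hepatocytes nuclei in hepatocyte clusters of uncultured cells and 76 in endothelial ones were left out. The 73 held 59 Creb5 and 54 Runx1 UMIs. The groups thus rest on cluster as well as label, and the part of this in the levels was not tested.

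Creb5 was at trace level in hepatocyte nuclei of Liver and far higher in cultured hepatocyte nuclei of every mouse. In Liver hepatocyte nuclei the 8 samples ran from 2.22 CPM through a median of 4.35 to 11.1 CPM. In Cell Suspension they ran from 4.84 through 19.1 to 34.8 CPM. In Primary Hepatocytes they ran from 457 (mouse 6) through 1008 to 1117 CPM (mouse 1). Liver and Cell Suspension overlapped, whereas every Primary Hepatocytes sample stood above every uncultured sample. The mean was 909 ± 230 CPM in Primary Hepatocytes, 19.2 ± 10.1 in Cell Suspension and 5.48 ± 3.24 in Liver (SD, n = 8 each), a ratio of means of 166 to Liver and 47.3 to Cell Suspension. The lowest Primary Hepatocytes sample was 41.1-fold above the highest Liver sample. Mouse 6, the lowest, also had the smallest share of its cultured hepatocyte nuclei in cluster 0 (21.1%, against up to 55.4% in mouse 1) and the largest in cluster 17 (20.2%). Its share of nuclei with a Creb5 UMI, taken at equal depth as described below, was the lowest within each cluster as well. That share was 48.0% in cluster 0 (other mice 60.2% to 67.4%) and 20.8% in cluster 1 (28.4% to 36.9%). In cluster 14 it was 20.5% (25.3% to 39.5%), and in cluster 17 it was 5.89% (6.89% to 15.2%). The part of the cluster mix in the level of mouse 6 was not tested.

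Runx1 gave the same order of sample types at a lower ratio. Liver hepatocyte nuclei ran from 3.06 CPM through a median of 6.56 to 8.75 CPM. Cell Suspension ran from 7.23 through 9.88 to 18.1 CPM, and Primary Hepatocytes from 263 (mouse 2) through 364 to 527 CPM (mouse 7). Again Liver and Cell Suspension overlapped and Primary Hepatocytes did not overlap with either. The means were 390 ± 107, 11.6 ± 4.19 and 6.25 ± 1.84 CPM (SD, n = 8 each), a ratio of 62.4 to Liver and 33.6 to Cell Suspension, and the lowest Primary Hepatocytes sample was 30.03-fold above the highest Liver sample. The choice of both genes rests on this contrast, in which 54.2% of 26508 genes tested were called at an adjusted p below 0.05 in edgeR, 27.5% higher and 26.7% lower.

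UMIs of both genes were found in many cultured nuclei, in pools whose empty droplets held them as well (given with the pools). A Creb5 UMI was found in 53.6% to 82.3% of cultured hepatocyte nuclei per sample and a Runx1 UMI in 49.9% to 72.0%. The median cultured hepatocyte nucleus held 3 Creb5 UMIs and 1 Runx1 UMI, the highest held 210 and 59, and 41.6% and 21.7% of nuclei held 5 or more. Because sample types differed in depth (a median of 7695.5 UMIs per Liver, 3644 per Cell Suspension and 6419.5 per cultured hepatocyte nucleus), each nucleus was also thinned to 1000 UMIs, which kept the 14490 Liver, 12118 Cell Suspension and 14702 Primary Hepatocytes nuclei of at least that depth. After thinning, Creb5 was seen in 42.5% ± 9.10 of Primary Hepatocytes nuclei (23.5% to 50.3%), 2.84% ± 1.80 of Cell Suspension nuclei and 0.823% ± 0.533 of Liver nuclei (SD, n = 8 each). Runx1 was seen in 27.1% ± 6.04 (19.6% to 36.0%), 1.57% ± 0.748 and 0.762% ± 0.276. In the endothelial-like nuclei of the same Primary Hepatocytes samples, of a lower median depth (1351 UMIs), the thinned shares were 12.2% ± 5.29 for Creb5 and 3.88% ± 2.24 for Runx1. The part of RNA outside the nuclei in these shares was not tested.

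**Figure D1:**
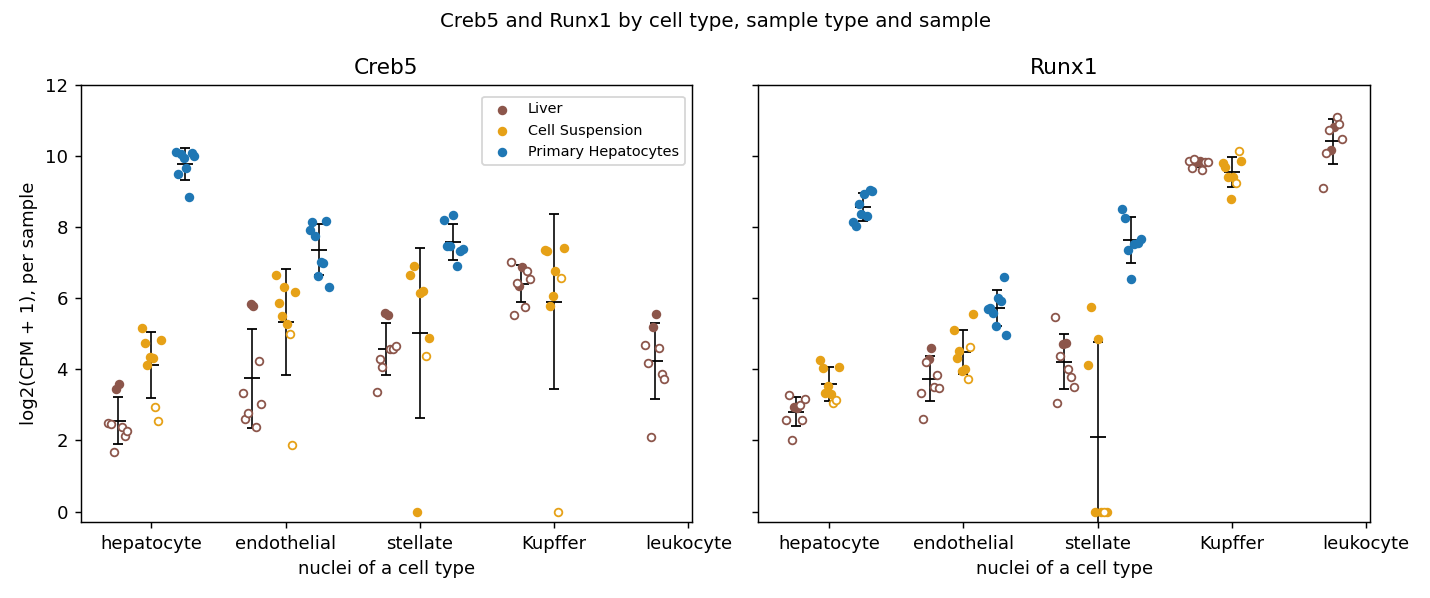
Level of Creb5 (left) and Runx1 (right) on a log2(CPM + 1) axis by cell type. Each point is 1 sample with at least 10 such nuclei, colour gives the sample type, open points are samples from the pools without cultured samples, and the black marks are the mean and SD of the log2 values. Hepatocyte nuclei of all 8 Primary Hepatocytes samples stand above all uncultured ones for both genes, and Runx1 is high in Liver Kupffer and leukocyte nuclei.

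Outside hepatocytes, Liver Kupffer nuclei were among the higher cell types for both genes, and Liver leukocyte nuclei for Runx1 only. Among the Liver cell types, Runx1 was highest in leukocyte and Kupffer nuclei. Liver leukocyte nuclei ran from 549 CPM through 1551 to 2176 CPM (mean 1471 ± 527) and Liver Kupffer nuclei, the resident macrophages, from 776 through 916 to 969 CPM (893 ± 64.1; SD, n = 8 each). Cell Suspension Kupffer nuclei ran from 445 through 752 to 1137 CPM, around the Liver range. The other Liver types were far lower, at 50.2 ± 23.1 CPM in mesothelial (n = 4 samples), a median of 17.6 in stellate and 11.9 in endothelial nuclei (n = 8 each). Liver leukocyte and Kupffer nuclei overlapped with each other, and every sample of both stood above every sample of cultured hepatocyte nuclei. Stellate-like nuclei of Primary Hepatocytes (214 ± 91.8 CPM, n = 7) overlapped with the cultured hepatocyte nuclei. Endothelial-like nuclei of Primary Hepatocytes were lower (54.6 ± 20.2 CPM, n = 8), overlapping with the lowest stellate-like sample and with mesothelial nuclei.

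Creb5 had no Liver cell type near its level in cultured hepatocyte nuclei. Among Liver Kupffer, stellate, leukocyte and endothelial nuclei it was highest in Kupffer nuclei, from 45.0 through 88.7 to 128 CPM (mean 88.4 ± 28.9, n = 8). Liver cholangiocyte nuclei, only 63 in all, gave 148 CPM when summed over samples, from 26 Creb5 UMIs. That was above the highest Kupffer sample, and these nuclei were not ranked per sample. The 41 Cell Suspension cholangiocyte nuclei held 28 Creb5 UMIs, and the 23 of Primary Hepatocytes held 63. Liver stellate (25.6 ± 13.3), leukocyte (22.04 ± 13.8) and endothelial nuclei (19.96 ± 22.2 CPM, n = 8 each) overlapped with each other. Within Primary Hepatocytes, the stellate-like nuclei were at 203 ± 75.3 CPM (n = 7) and the endothelial-like nuclei at 182 ± 84.0 (n = 8), overlapping with each other and below every cultured hepatocyte sample. Only 77 nuclei of Primary Hepatocytes were annotated as Kupffer cells, and summed they gave 829 CPM of Creb5 and 684 CPM of Runx1. Cluster 8 of the cultured cells held 1450 Primary Hepatocytes nuclei, with a median of 2565 UMIs. They were not counted among the hepatocyte nuclei, although their hepatocyte markers summed to 6593 CPM and Hnf4a was at 224 CPM. They gave 603 ± 125 CPM of Creb5 and 348 ± 81.2 of Runx1 (SD, n = 8 each).

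Since Runx1 was highest in these immune cells, their markers were read in the same hepatocyte nuclei. The 8 Kupffer markers summed to 9.47 to 19.1 CPM per sample in cultured hepatocyte nuclei and 8.26 to 18.3 CPM in Liver hepatocyte nuclei, which overlap, against 6631 CPM in Liver Kupffer nuclei. Ptprc, the pan-leukocyte marker CD45, was at 1.76 CPM in cultured hepatocyte nuclei and 1025 CPM in Liver Kupffer nuclei. The 8 leukocyte markers summed to 30.1 to 50.2 CPM in cultured and 11.9 to 29.4 CPM in Liver hepatocyte nuclei, and the 8 stellate markers to 47.4 to 631 and 17.5 to 43.9 CPM. Single genes made up most of these sums in cultured hepatocyte nuclei, Reln with 228 of 233 CPM of the stellate list and Themis with 29.8 of 40.6 CPM of the leukocyte list, against 24.8 CPM of Reln and 8.10 CPM of Themis in Liver hepatocyte nuclei. The endothelial markers summed to 112 to 175 CPM in cultured and 32.7 to 51.4 CPM in Liver hepatocyte nuclei. The part of the leukocyte, stellate and endothelial markers in the levels of Creb5 and Runx1 was not tested.

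Inside the cultured hepatocyte nuclei the 2 genes did not peak in the same cluster. Creb5 was highest in cluster 0 (5961 nuclei), where the 8 samples ran from 1023 through 1383 to 1453 CPM. It was lower in clusters 1 (359 through 652 to 705 CPM; 5846 nuclei) and 14 (314 through 713 to 831; 1682 nuclei), and lowest in cluster 17 (60.4 through 116 to 194; 1271 nuclei). Cluster 0 exceeded cluster 1 in 8 of 8 samples, by 1.96-fold to 3.02-fold, and cluster 17 by 7.50-fold to 16.9-fold. Runx1 was highest in cluster 1, from 299 through 525 to 753 CPM, and cluster 1 exceeded clusters 0, 14 and 17 in 8 of 8 samples each. Its level in cluster 0 was 0.377 to 0.815 times that in cluster 1 of the same sample. Clusters 0 (182 through 299 to 433 CPM) and 17 (172 through 283 to 506 CPM) had no fixed order, since cluster 0 was the higher in 3 of 8 samples. The clusters were drawn from these same nuclei, so their differences were not tested, and median depth was 7372 UMIs in cluster 0 and 4871 in cluster 17. The 2 low-Runx1 clusters thus held the highest and the lowest Creb5 levels.

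**Figure D2:**
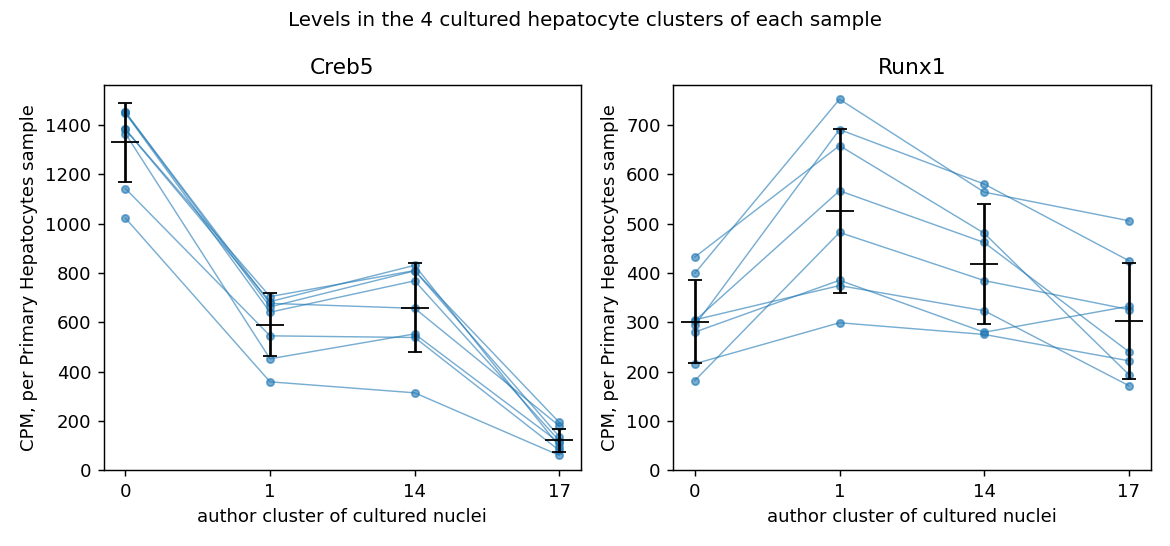
Level in CPM of Creb5 (left) and Runx1 (right) in the 4 cultured hepatocyte clusters. Each line joins the clusters of 1 Primary Hepatocytes sample, and black marks are the mean and SD over the 8 samples. Creb5 is highest in cluster 0 in every sample and is at 122 ± 46.3 CPM in cluster 17, whereas Runx1 is highest in cluster 1 in every sample.

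Whether the genes were found together in single nuclei was tested, since their levels and not their co-occurrence had chosen them. In nuclei thinned to 1000 UMIs, nuclei with both genes were 1.02 times as frequent as the product of the 2 shares predicted, from 0.981 to 1.06 over samples and above 1 in 6 of 8, which an exact two-sided sign-flip permutation test over samples did not separate from 1 (p = 0.102). With the prediction made inside each cluster, the ratio was 1.06, above 1 in 7 of 8 samples (exact sign-flip p = 0.0156). The clusters were drawn from these same nuclei, so this p is not independent of them. The part of RNA outside the nuclei in either ratio was not tested. By cluster the mean ratio was 1.04, 1.06, 1.17 and 1.12 in clusters 0, 1, 14 and 17, above 1 in 8, 7, 8 and 6 of 8 samples. Over samples the ratio ran from 0.903 to 1.13 in cluster 1 and from 0.765 to 1.57 in cluster 17. Over the 8 mice, no relation between Creb5 and Runx1 in cultured hepatocyte nuclei was detectable (Pearson r = 0.352, exact permutation p = 0.406, and Spearman rho = 0.333, exact permutation p = 0.428). Without mice 2 and 6, the farthest from the median Creb5 level, r was -0.288 (exact permutation p = 0.65, n = 6), and without each mouse in turn it was 0.233 (without mouse 7) to 0.585 (without mouse 1) (exact permutation p from 0.1496 to 0.6883). Inside clusters 0, 1, 14 and 17 r was 0.355, 0.219, 0.415 and 0.753, and no p was computed for these.

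Isolation without culture was compared next. Its reference is the same Liver values, low for both genes, that entered their choice. The counts read for that choice were split by sample type and cell type, Cell Suspension included. The p-values here, and those of the pool and cell type comparisons below, are therefore not independent of that choice. Both genes were called higher there in hepatocyte nuclei, but not in the pools that held no cultured sample. Creb5 was higher in Cell Suspension than in Liver by 1.98 ± 0.33 on the log2 scale (SE; edgeR, adjusted p = 4.1e-05), and Runx1 by 1.10 ± 0.22 (adjusted p = 3.2e-04), where 21.2% of the 26508 genes were called, 7.62% higher and 13.6% lower. The pools, however, were not balanced. Pools 1 and 6 held 6 of the 8 Liver samples, 2 Cell Suspension samples and no cultured sample, whereas the other 4 pools all held 1 to 3 cultured samples. In pools 1 and 6 alone, Creb5 differed by 0.75 (adjusted p = 0.131) and Runx1 by 0.37 (adjusted p = 0.536), neither past the threshold, in a fit of 8 samples that called 6.17% of 23152 genes, 2.09% higher and 4.08% lower. There the 2 Cell Suspension samples of Creb5 were at 4.84 and 6.66 CPM against 2.22 to 4.59 CPM in the 6 Liver samples, which do not overlap (exact two-sided permutation p = 0.0714, with 0.0357 the smallest the design allows). For Runx1 they were at 7.75 and 7.23 CPM against 3.06 to 8.75 CPM, which overlap (exact p = 0.5). These 2 Cell Suspension samples came from mice 6 and 7, whose Liver samples were among the 6. Neither the permutation tests nor the fit of these pools used that pairing. With pool as a covariate across all samples the differences were 1.06 (adjusted p = 0.0020) for Creb5 and 0.75 (adjusted p = 0.0479) for Runx1.

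Within each of the 4 pools that held both sample types, every Cell Suspension sample was above every Liver sample in Creb5. They were at 4.84 against 2.22 to 3.84 CPM in pool 1, 6.66 against 4.17 to 4.59 in pool 6, 18.9 and 27.1 against 10.0 in pool 2, and 19.4 against 11.1 in pool 5. Both sample types thus shifted with the pool. The 2 Liver samples from pools with cultured samples were at 10.6 ± 0.770 CPM of Creb5 and the other 6 at 3.78 ± 0.892 CPM, with no overlap (exact two-sided permutation p = 0.0357, the smallest the design allows, 0.0714 after adjustment over the 4 pool tests). The 6 Cell Suspension samples from pools with cultured samples were at 23.7 ± 6.84 against 5.75 ± 1.29 CPM in the other 2 (exact p = 0.0357, adjusted 0.0714). Runx1 in Liver overlapped between the pools (6.48 and 6.65 CPM against 3.06 to 8.75 CPM, exact p = 0.857), and in Cell Suspension it was at 13.0 ± 3.93 against 7.49 ± 0.369 CPM (exact p = 0.107, adjusted 0.143).

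RNA in droplets without a nucleus also differed between the pools. In barcodes of at most 100 UMIs, Creb5 was at 22.4 and 8.19 CPM in pools 1 and 6, from only 11 and 2 Creb5 UMIs. It was at 65.8 CPM in pool 2 with its 1 cultured sample, and at 322, 463 and 525 CPM in pools 5, 4 and 3 with 2, 2 and 3 of them. Runx1 was at 48.9 and 32.8 CPM in pools 1 and 6 (24 and 8 UMIs), 83.2 in pool 2, and 151, 223 and 229 in pools 5, 4 and 3. Empty droplets of pools 2 to 5 thus held more Creb5, and those of all 6 pools more Runx1, than hepatocyte nuclei of any uncultured sample. In cultured samples, the 525 CPM of Creb5 in pool 3 exceeded the 457 CPM of mouse 6, whose cultured sample was in that pool. The 322 to 525 CPM of pools 3 to 5 also exceeded Creb5 in cluster 17 of every sample and the mean of the endothelial-like and of the stellate-like nuclei. The Liver samples of pools 2 and 5 were at 10.0 and 11.1 CPM of Creb5, beside 65.8 and 322 CPM in the empty droplets of those pools. The part of the RNA of empty droplets in the uncultured and cultured levels was not tested. Taken against the 6 Liver samples of pools 1 and 6 alone, the ratio of means of Primary Hepatocytes was 240 for Creb5 and 63.5 for Runx1. The 45 Cell Suspension nuclei found in the cultured hepatocyte clusters carried 654 CPM of Creb5 and 336 CPM of Runx1.

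**Figure D3:**
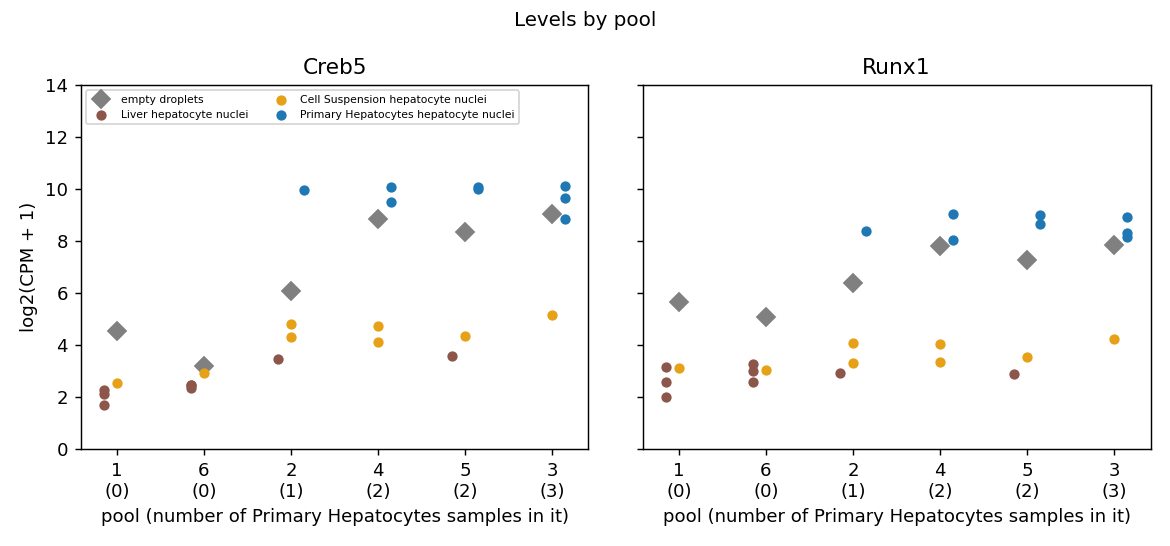
Level of Creb5 (left) and Runx1 (right) on a log2(CPM + 1) axis by pool, with the number of Primary Hepatocytes samples in each pool in brackets. Diamonds are empty droplets of the pool, and points are hepatocyte nuclei of single samples, coloured by sample type. Empty droplets reach 525 CPM of Creb5 and 229 CPM of Runx1 in pool 3, which held 3 cultured samples, and Liver samples outside pools 1 and 6 are the 2 highest for Creb5.

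In other cell types the estimates for the isolation step were smaller, and their difference from hepatocyte nuclei was not tested. In endothelial nuclei Creb5 ran from 4.16 through 8.16 to 56.2 CPM in Liver and from 2.66 through 50.6 to 99.5 CPM in Cell Suspension, overlapping, with a log2 difference of 1.49 ± 0.41 (SE; edgeR, adjusted p = 0.0234), where 3.99% of 18082 genes were called and 2.12% were higher. That call was lost with pool as a covariate (0.20, adjusted p = 0.845) and without mouse 1, 2, 3 or 8 in turn. The 2 highest Liver samples, at 54.2 and 56.2 CPM, were those of the pools with cultured samples. Runx1 in endothelial nuclei differed by 0.83 ± 0.29 (adjusted p = 0.111). In Kupffer nuclei Creb5 differed by 0.37 ± 0.27 (adjusted p = 0.632) and Runx1 by -0.21 ± 0.19 (adjusted p = 0.701), where 1.3% of 13819 genes were called. The Cell Suspension sample of mouse 6 had no Creb5 UMI in its 20 Kupffer nuclei, which allows up to 139.8 CPM by counting error alone.

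Splicing state was not used in choosing the genes. Nuclear RNA is largely unspliced, and over all genes 35.3% of UMIs in cultured hepatocyte nuclei, 25.5% in Liver hepatocyte nuclei and 27.5% in Liver Kupffer nuclei were spliced or ambiguous, that is, not assigned to introns. Of Runx1 UMIs, this share ran from 23.8% through 28.8% to 32.9% over the 8 Primary Hepatocytes samples. In Liver Kupffer nuclei it ran from 3.92% through 5.57% to 8.62%, and in Liver leukocyte nuclei from 2.59% through 6.07% to 7.22%. The cultured hepatocyte samples thus lay above all Liver Kupffer and leukocyte samples. Summed Liver mesothelial nuclei, with 30 Runx1 UMIs, however lay inside the cultured range, and Liver stellate nuclei, with 76, were at 19.7%. Other nuclei of Primary Hepatocytes, when summed, also lay above those Kupffer and leukocyte samples. Their shares were 30.1% in cluster 8, 25.8% in stellate-like, 22.5% in endothelial-like and 15.2% in Kupffer nuclei. In Cell Suspension, Kupffer nuclei were at 6.34%, leukocyte nuclei at 5.63% and endothelial nuclei at 22.6%. The contrast thus mixes cell type with sample type, and the part of each was not tested. The share of unspliced Runx1 UMIs was 72.3% in cultured hepatocyte nuclei and 94.7% in Liver Kupffer nuclei when summed. Liver hepatocyte nuclei, with few Runx1 UMIs, gave 9.72% ± 6.87 and Cell Suspension 19.1% ± 5.12 (n = 8 and 7 samples with at least 20 UMIs). Most of the Runx1 difference lay in ambiguous UMIs, 23.7% in cultured hepatocyte and 3.53% in Liver Kupffer nuclei, while spliced UMIs were 4.07% and 1.80%. For Creb5 the shares overlapped, at 12.3% ± 0.792 in Primary Hepatocytes (n = 8), 9.85% ± 3.21 in Liver hepatocyte (n = 8) and 11.5% ± 6.71 in Liver Kupffer nuclei (n = 6). The antisense gene Gm26626, inside Runx1, had 84 UMIs in cultured hepatocyte nuclei against 42992 of Runx1.

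**Figure D4:**
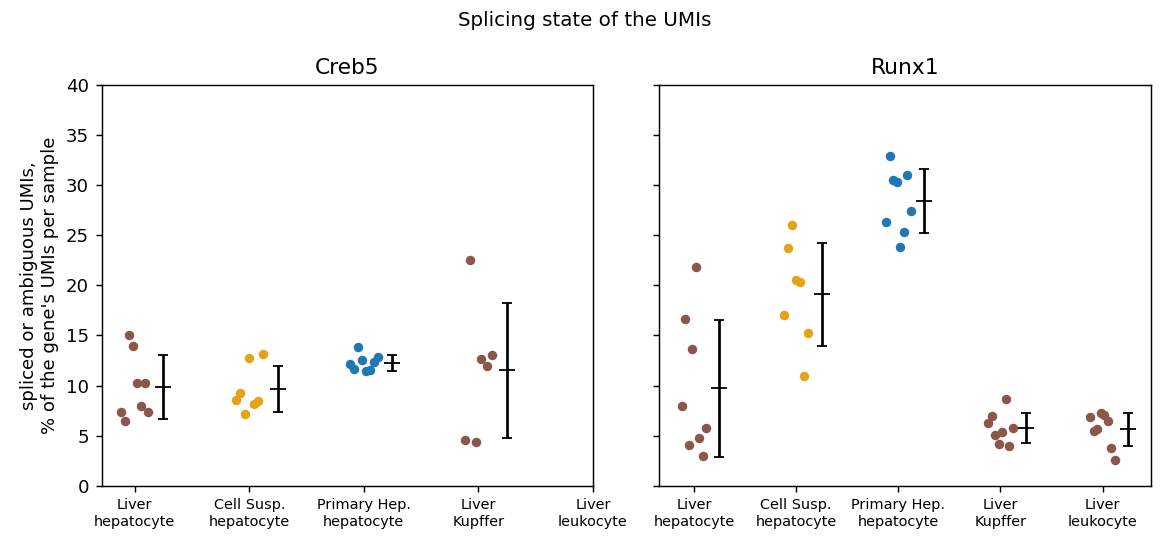
Share of the UMIs of Creb5 (left) and Runx1 (right) that were spliced or ambiguous, in percent. Each point is 1 sample with at least 20 UMIs of the gene in that cell type, and black marks are the mean and SD. Runx1 in cultured hepatocyte nuclei, at 23.8% to 32.9%, stands above Liver Kupffer and leukocyte nuclei, which differ in both cell type and sample type. Creb5 stays near 12.3% in Primary Hepatocytes and overlaps between types.

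The genes closest to each in pattern were found by the Pearson correlation of log2(CPM + 1) over 23 sums by sample type and cell type or cultured cluster, among 15457 genes. These sums share pools and depth, and the values are a description. For Creb5 they were Bicdl2 (r = 0.907), Eif4a2, a subunit of the translation initiation factor eIF4F (0.906), Smox, the spermine oxidase (0.904), Lcn2, the secreted siderophore-binding protein lipocalin-2 (0.896), and Myom1, a protein of the muscle M band (0.894). Lcn2 was at 306 CPM in cluster 0 and 2.58 CPM in Liver hepatocyte nuclei, and Myom1 at 533 and 9.52 CPM. For Runx1 they were Gm45894 (0.914), Ifngr1, the ligand-binding chain of the interferon gamma receptor (0.907), Baz1a (0.884), Myo9b (0.881) and Relt (0.863). Ifngr1 was at 109 CPM in cluster 1, 183 CPM in Liver Kupffer and 11.1 CPM in Liver hepatocyte nuclei. Creb5 and Runx1 themselves had r = 0.571 over these sums.

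Among relatives in hepatocyte nuclei, members were called in both directions in Primary Hepatocytes over Liver, as were all genes (27.5% higher and 26.7% lower). Of the other 6 genes of the RUNX family and its core partners, none was called higher in Primary Hepatocytes than in Liver and 2 were called lower (median log2 difference -0.25, against 0.04 over all genes), whereas without scaling of library sizes 2 were higher and 1 lower. Without scaling, 74.1% of the 16386 called among all genes were higher. With TMM scaling none was higher at an unadjusted p below 0.05 in edgeR, and none was in DESeq2. Cbfb, the partner subunit of RUNX1, differed by 0.12 ± 0.21 (edgeR, adjusted p = 0.68). The paralogs Runx2 (-0.16 ± 0.16) and Runx3 (0.43 ± 0.36) were not called and stayed at 5.03 and 0.734 CPM in Primary Hepatocytes. Cbfa2t2, an ETO-family corepressor, fell by 1.21 on the log2 scale (adjusted p = 1.8e-11) and Cbfa2t3 by 0.55 (adjusted p = 0.019), of which Cbfa2t3 lost its call with pool as a covariate (-0.13, adjusted p = 0.746) and without library scaling (-0.0092, adjusted p = 0.974).

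Of the other 15 genes of the CREB and ATF family, 6 were called higher and 4 lower after culture (median 0.20), beside the 27.5% and 26.7% of all genes, and 10 higher and 1 lower without library scaling, where Atf6, Atf7 and Crem changed sign and were not called. Atf3, an early stress-response gene, rose by 3.60 ± 0.29 (adjusted p = 4.3e-12) and Creb3l4 by 1.53 ± 0.23 (adjusted p = 1.4e-06). Creb3l2 and Atf4 rose by 0.86 each, Creb3l2 by 0.53 with pool as a covariate. Creb3l3, the liver-enriched CREBH that acts in lipid metabolism and the acute phase, fell by 3.84 (adjusted p = 3.1e-19). Atf2 rose by 0.47 on the log2 scale (adjusted p = 0.0048) and Atf7, the other member of the group of CREB5, fell by 0.40 (adjusted p = 0.0024). With pool as a covariate Atf2 lost its call and turned to -0.04 (adjusted p = 0.830), and Atf7 was at -0.69. Atf3 had another order over the sample types than Creb5, a difference that was not tested. Atf3 was at 6.98 CPM in Liver, at 885 CPM after isolation and at 123 CPM after culture, a rise of 7.19 ± 0.34 with isolation (adjusted p = 8.3e-16) and a fall by 3.59 from Cell Suspension to Primary Hepatocytes (adjusted p = 3.7e-12), where 51.9% of genes were called, 27.7% higher and 24.2% lower.

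The 3 JUN genes, whose products pair with this group, had the order of Atf3. All 3 were called higher in Cell Suspension than in Liver, Jun by 5.16 ± 0.21, Junb by 3.51 ± 0.23 and Jund by 2.85 ± 0.19, beside 7.62% of all genes, and all 3 were called lower in Primary Hepatocytes than in Cell Suspension, by 3.56, 2.24 and 2.35, beside 24.2% of all genes. Over Liver they were called higher by 1.60, 1.27 and 0.50 in Primary Hepatocytes, beside 27.5% of all genes, where with pool as a covariate Jund lost its call (0.35, adjusted p = 0.160) and Junb was at 0.79. These directions were the same without library scaling. In pools 1 and 6 alone the isolation calls of Jun (5.30), Junb (3.31), Jund (2.99) and Atf3 (6.73) held, with adjusted p from 8.5e-07 to 1.6e-04, beside 2.09% of all genes called higher there. Within those pools the JUN genes and Atf3 thus passed the threshold and Creb5 and Runx1 did not, and the difference between the genes was not tested. Of the 5 coactivators of CREB proteins, none was called higher and 3 lower in Primary Hepatocytes over Liver, beside 27.5% and 26.7% of all genes, Crtc1 by -0.74 ± 0.10, Crebbp by -0.71 ± 0.10 and Ep300 by -0.48 ± 0.09, whereas without library scaling none was higher and 1 lower (median 0.06), since Ep300 changed sign and Crtc1 (-0.21, adjusted p = 0.0958) lost its call. With TMM scaling none was higher at an unadjusted p below 0.05 in edgeR, nor was any in DESeq2.

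**Figure D5:**
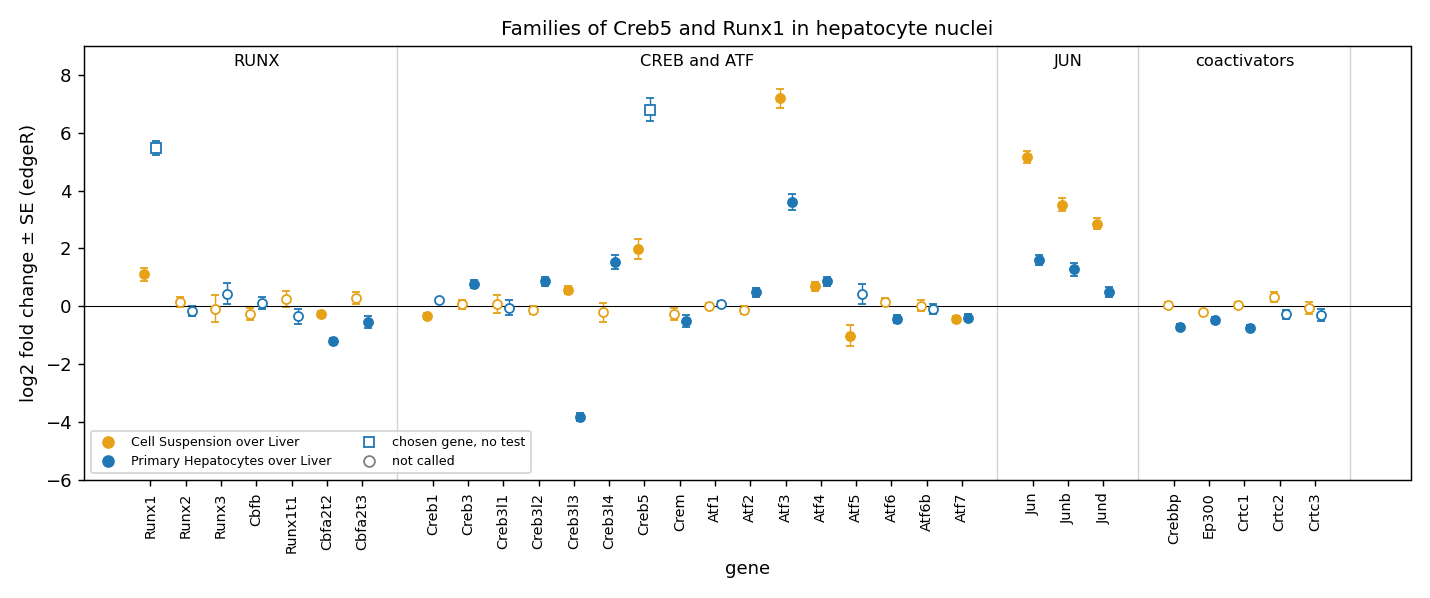
Log2 fold change with SE from edgeR in hepatocyte nuclei for the relatives and partners of Creb5 and Runx1, with Cell Suspension over Liver in yellow and Primary Hepatocytes over Liver in blue. Filled points were called at an adjusted p below 0.05, and open squares mark Creb5 and Runx1 themselves, which were chosen for Primary Hepatocytes over Liver and not tested there. The 3 JUN genes and Atf3 are highest in Cell Suspension over Liver (2.85 to 7.19). Atf6, Atf7, Crem and Ep300, below 0 in blue here, are above 0 and not called without library scaling.

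Genes known to work with RUNX1, or downstream of it in blood cells, were called in both directions in Primary Hepatocytes over Liver, where 27.5% of all genes were higher and 26.7% lower. Among 13 cofactors of RUNX1, 3 were called higher and 7 lower (median -0.46), and 6 higher and 3 lower without library scaling, where Hdac3, Tle4 and Ep300 changed sign and, with Sin3a, were not called. Hipk2, a kinase that phosphorylates RUNX1, rose by 1.77 ± 0.21 and the methyltransferase gene Prmt1 by 1.00 ± 0.13, while the Groucho corepressor genes Tle1 and Tle3 fell by 2.18 and 1.09. Among 13 known RUNX1 targets of blood cells, 11 had enough counts to test, and 4 were called higher and 2 lower (median 0.80), a count near that background, and 5 higher and 1 lower without library scaling. Itga2b, the platelet integrin subunit, rose by 1.97 ± 0.14 to 26.3 CPM (adjusted p = 1.5e-13). Gfi1 (2.10) and Nfe2 (1.08) were called higher at 0.399 and 4.39 CPM in Primary Hepatocytes, Csf1r rose by 0.80 (1.56 with pool as a covariate), and Cebpa, which also drives hepatocyte genes, fell by 2.189 on the log2 scale. Itga2b was called higher in Cell Suspension as well, by 0.53 ± 0.14 (adjusted p = 0.0069), a call lost in pools 1 and 6 alone (0.14, adjusted p = 0.809) and without library scaling (0.36, adjusted p = 0.0776).

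Among 12 genes with a known CRE, isolation and culture gave opposite counts. In Cell Suspension over Liver 9 were called higher and none lower (median 1.38), beside 7.62% and 13.6% of all genes, with Fos at 6.56 ± 0.21, Nr4a1 at 3.92 ± 0.36, Sik1 at 1.86 ± 0.26 and G6pc at 1.62 ± 0.24. None was lower at an unadjusted p below 0.05 in edgeR or in DESeq2. In pools 1 and 6 alone 6 of the 12 were called higher, beside 2.09% of all genes. In Primary Hepatocytes over Liver 3 were called higher and 6 lower (median -0.28), beside 27.5% and 26.7% of all genes, and 3 higher and 5 lower without library scaling, where Crem changed sign and the median was 0.25. The gluconeogenic genes Pck1 and G6pc fell by 5.76 and 4.76 on the log2 scale, Tat, encoding tyrosine aminotransferase, fell by 4.46 and the coactivator gene Ppargc1a fell by 2.51, while Fos, Dusp1 and Per1 rose by 3.23, 1.36 and 0.79. With pool as a covariate Per1 lost its call (1.06, adjusted p = 0.115), which left 2 higher and 6 lower. In Primary Hepatocytes over Cell Suspension none was called higher, none at an unadjusted p below 0.05 or in DESeq2, and 9 were called lower, beside 27.7% and 24.2% of all genes, whereas without library scaling 2 were higher and 9 lower.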

How the data were processed

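Nuclei of 24 samples were sequenced in 6 pools. Per the labels and the methods of the study, the authors made libraries with droplet-based 3′ chemistry, demultiplexed them with bcl2fastq 2.19.0 and counted reads with Salmon Alevin and alevin-fry on GRCm38. They called nuclei by barcode rank, assigned them to samples by modelling normalized hashtag counts, and removed hashtag doublets, unassigned nuclei and doublets inferred with scDblFinder, so no doublet caller was run here. The deposited values are raw UMI counts per gene and barcode (spliced, unspliced and ambiguous), with the authors' table of sample, cluster and cell type. A hashtag written CD2 was read as CS2.

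UMI counts were summed per sample and cell type where at least 10 nuclei were present. Genes of at least 10 counts over samples were tested with edgeR 4.0.16 (quasi-likelihood F test, TMM, design by sample type as in the study, Benjamini-Hochberg over all genes tested, threshold 0.05) in R 4.3.3, after a test on simulated data. DESeq2 1.42.0 was an alternative, as were other scalings and filters, spliced or unspliced UMIs alone, pool or mouse as a covariate, deeper nuclei and leaving out each mouse. Permutation tests were exact and two-sided (scipy 1.17.1), and a count of 0 was given an upper limit of 3 counts. Such limits cover counting error only. Shares with a UMI were taken after thinning nuclei to 1000 UMIs. Empty droplets were barcodes of at most 100 UMIs. The named genes were Creb5 and Runx1, members of fixed lists led by up to 4 called ones with the largest change after culture, and the 5 genes of most similar pattern, among genes reaching 10 CPM over sums of at least 50 nuclei. The 2 genes, the lists and the tests were chosen with earlier results of these data known.

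Samples of 1 mouse came from the same liver. Over 3864 genes, deviations from the group means correlated between Liver and Cell Suspension of 1 mouse at 0.421 to 0.898 (median 0.756, other mice -0.102), and between Liver or Cell Suspension and Primary Hepatocytes at medians of 0.0608 and 0.0377.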

Additional observations from a re-analysis of the deposited data

Results flagged for a closer look

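In Liver mesothelial nuclei, Creb5 of mouse 5 stood apart from the other samples, at 69.6 CPM against 0 to 7.01 CPM (n = 4 samples). All Liver mesothelial nuclei together held fewer than 20 Creb5 UMIs, so the level of mouse 5 rests on few counts. The 0 was a sample of 20 nuclei, which allows up to 55.3 CPM by counting error alone. It was the 1 sample so far from the rest in 56 groups examined, and chance gives about 1 in 20. Mouse 5 was in a pool with cultured samples.

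Data outside the comparisons also held signal of both genes. Empty droplets of pools 2, 3, 4 and 5 were at 65.8, 525, 463 and 322 CPM of Creb5. These were above the 8.19 and 22.4 CPM (2 and 11 UMIs) of the pools without cultured samples. For Runx1 they were at 83.2, 229, 223 and 151 CPM, above 32.8 and 48.9 CPM (8 and 24 UMIs). The 45 Cell Suspension nuclei that lay in the cultured hepatocyte clusters held 654 CPM of Creb5 and 336 CPM of Runx1. The 2 Liver nuclei there held 275 CPM of Creb5 and 0 of Runx1, which allows up to 103 CPM by counting error alone.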

How the results depend on the processing

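Of 96 values recomputed under another setting than leaving out a mouse, 80 stayed the same, that is, tested values kept their direction and side of the threshold, gene counts stayed within 1.5 times and other values within 1 SD. The pools without cultured samples, the pool covariate in endothelial and Kupffer nuclei and library sizes without scaling were chosen after seeing the data, and the cause of a change was not tested unless the setting itself gives it. In pools 1 and 6 alone, with fewer samples, the isolation difference in hepatocyte nuclei lost its call for Creb5 (0.75) and Runx1 (0.37), and 1429 genes were called. In endothelial nuclei Creb5 lost its call with DESeq2 (1.56, adjusted p = 0.0803) and the pool covariate (0.20, with 384 genes called), while Runx1 gained one with edgeR's filterByExpr (0.92, adjusted p = 0.0414) and DESeq2 (0.94, adjusted p = 0.0491). In Kupffer nuclei 87 genes were called with filterByExpr and 99 with the pool covariate, where Creb5 turned to -0.091. Co-detection within clusters, which were drawn from the same nuclei, passed the threshold (1.06). Thinned to 2000 UMIs and not thinned, the share with a UMI was 57.8% and 73.1% for Creb5 and 41.1% and 61.9% for Runx1.

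Leaving out each mouse gave, in hepatocyte nuclei, 1.74 to 2.29 for Creb5 and 0.90 to 1.22 for Runx1 between Cell Suspension and Liver, with 4689 to 5211 genes called. In endothelial nuclei it gave 1.06 to 2.15 for Creb5, below the threshold without mouse 1, 2, 3 or 8, 0.54 to 1.10 for Runx1, called without mouse 5, and 449 to 749 genes, the fewest without mouse 1. In Kupffer nuclei it gave 0.15 to 0.46 for Creb5, -0.35 to -0.09 for Runx1 and 79 to 220 genes, with 79, 105 and 119 without mice 1, 2 and 3. Creb5 in Liver differed between pools by 6.22 to 7.31 CPM, with an unadjusted exact permutation p of 0.0476, or 0.143 without mouse 4 or 5, where 1 sample against 6 allows no smaller p, and Runx1 by -0.193 (without mouse 3) to 0.945 CPM.

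With the mouse as a replicate block, the hepatocyte isolation differences were 1.96 for Creb5 and 1.11 for Runx1, and the pairing changed no call of these genes in the 3 cell types and moved the called genes in hepatocyte nuclei from 5629 to 6021. It was not run for the listed relatives. Of the genes called, 35.9% were higher in hepatocyte nuclei of Cell Suspension over Liver, against 47.0% with RLE scaling, 45.4% with filterByExpr, 48.6% with DESeq2 and 17.9% without scaling. For Primary Hepatocytes the split without scaling was 74.1% over Liver (50.7% with TMM) and 79.9% over Cell Suspension (53.4%). RLE, filterByExpr and DESeq2 gave 65.9%, 68.9% and 68.7% in endothelial nuclei (53.3% with TMM) and 94.9%, 95.4% and 94.8% in Kupffer nuclei (82.8%). Without scaling, the median of all genes moved by 0.54, 0.69 and -0.16 on the log2 scale for Primary Hepatocytes over Liver, over Cell Suspension and Cell Suspension over Liver, and with RLE by 0.10, 0.02 and 0.08. Depth limits the uncultured levels, at 814 Creb5 and 817 Runx1 UMIs in all Liver hepatocyte nuclei.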
